A study of Schizosaccharomyces pombe with 24 samples.

Results

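The mug (meiotically upregulated) genes of the fission yeast Schizosaccharomyces pombe were described here from genome annotations deposited with a study of heterochromatin. Members were all genes with an mRNA whose name is mug followed by a number, on chromosomes I, II and III, leaving out any within 100000 bases of either end of chromosome I or II. The rule found 92 members among 5113 protein-coding genes of the annotation. All 92 genes with such a name passed the limit at the chromosome ends, and the nearest to it was mug14 at position 128610 of chromosome II. The same limit left 4989 protein-coding genes, so that 4897 other genes stood beside the members. No measured value entered the choice of members.

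The study made 24 chromatin immunoprecipitation sequencing (ChIP-seq) libraries with antibodies against dimethylated or trimethylated lysine 9 of histone H3, called 9me2 and 9me3 in the labels. All strains carried a reporter of 10 tet operators beside ade6+, and cells in log phase in YEA at 32 °C were fixed for 15 min in 1% formaldehyde. At the ectopic site (ura4D::10xteto-ade6+, 14 libraries) the genotypes were clr4D, swi6D, swi6Dmst2D, swi6Dset1D, swi6Dmst2Dset1D, set1Dmst2D and WT, and at the endogenous site (cenHD::10xteto-ade6+, 10 libraries) swi6D, swi6Dmst2D, swi6Dset1D, swi6Dmst2Dset1D and WT. Each genotype had 1 library per antibody, and the methylation levels and read depths of these libraries were not analysed here, so nothing below compares genotypes.

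The name mug comes from a large survey of genes whose transcripts rise in meiosis and spore formation. In meiosis of this yeast the HMG-box factor Ste11 acts early, and the forkhead factor Mei4 then drives the middle genes through promoter motifs of the GTAAACA type. During vegetative growth the RNA-binding protein Mmi1 recognises repeated UNAAAC motifs, TNAAAC in DNA letters, in many meiotic transcripts and directs them to the nuclear exosome. Some genes silenced by Mmi1 carry H3K9 methylation in vegetative cells, which links this gene class to the marks profiled in the study.

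The values below were read mainly from the deposited annotation whose reporter lies at the mating-type locus on chromosome II, called the endogenous-site annotation. A second one, the ectopic-site annotation, has its reporter on chromosome III and gave the product classes and most product descriptions. Some products came from the annotation of a reference assembly. No label ties either annotation to a strain, so both names rest on where the reporter feature lies. All values describe genes of an annotation. Genes are not replicates, so no error, interval or test belongs to the differences, and no value was read from a library.

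The names run over numbers from 1 to 191. Of these numbers, 92 were borne as gene names and 84 survived only as synonyms of genes that now have another name, while 15 were found in neither place. Of the genes with such a synonym, 83 lay in the same chromosomal range and were counted among the other genes. They include the recombination genes rec24, rec25 and rec27, the bouquet genes bqt1 and bqt2, which tie telomeres to the spindle pole body in meiotic prophase, and moa1, the meikin that sets kinetochore orientation in meiosis I. The members are thus the genes of the survey that had kept the survey's name.

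Products described in the ectopic-site annotation differed widely between members and other genes. In it 39 members (42.4%) were called sequence orphans, meaning proteins with no recognised relative. Among other genes 5.11% had this description and among all protein-coding genes 5.79%. Of the genes with a mug synonym 1 of 83 (1.20%) was called an orphan. A further 7 members (7.61%) were hypothetical proteins, against 2.78% of other genes and 2.87% of all protein-coding genes. Of the rest, 3 were conserved fungal proteins and 11 were described by a mug name alone, which left 32 members with a described product.

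The described products named several kinds of protein. Mug65 and Mug56 were listed as spore wall assembly proteins, and Mug27, also named Slk1, as a meiosis-specific protein kinase. Mug28 and Mug24 were RNA-binding proteins, and Mug161 was a splicing factor of the CwfJ family. Mug86 was listed as an acetate transporter and Mug73 as a membrane transporter. Mug89 has a CDC50 domain and is in ASM294v3, the reference assembly, a subunit of a lipid-flipping ATPase. Mug64 and Mug137 have BAR domains, which bind curved membranes. The median coding length was 1054.5 bases in the 32 described members and 537 bases in the 39 orphan members. The 250 orphans among other genes had a median of 502.5 bases.

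Coding sequences of mug genes were short beside those of other genes. The median was 858 bases in mug genes (quartiles 552.75 and 1295.25), against 1149 bases in other genes (quartiles 681 and 1776). Under 600 coding bases were found in 30 mug genes (32.6%) and in 20.2% of other genes. Over 2000 bases were found in 8 mug genes (8.70%) and in 19.7% of other genes. Genes with a mug synonym had a median of 1137 bases, close to that of other genes. Members ran from 315 bases in mug150, 318 in mug177, 330 in mug153 and 342 in mug98, all of them orphans, to 2460 in mug45, 2538 in mug4, 2898 in mug56 and 4464 in mug62. The protein of mug62 was listed as a predicted AMP-binding enzyme, that of mug56 as a predicted spore wall assembly protein, and mug4 and mug45 encode orphans. The long end of the list therefore also held orphan genes.

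Introns interrupted the coding sequence of 33 mug genes (35.9%), against 47.5% of other genes and 47.3% of all protein-coding genes in the range. Fission yeast introns are short, and several meiotic transcripts are known to be spliced only in meiosis. The 92 members held 70 introns in all, a mean of 0.761 per gene, against 1.01 in other genes. No intron was found in 59 members, 1 in 16, 2 in 7, 3 in 5, 4 in 2, 5 in 1 and 6 in 2. Genes that had introns held similar numbers, with a mean of 2.12 in mug genes and 2.13 in other genes. Scaled to coding length the order turned round, with 0.740 introns per 1000 coding bases in mug genes and 0.715 in other genes. An intron was found in 50.6% of the genes with a mug synonym, with a mean of 1.06 per gene.

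The share of genes with an intron rose with coding length in the members and declined with it in other genes. Members with an intron had a median coding length of 1152 bases and those without one 735 bases, whereas among other genes those with an intron were the shorter ones, at 1050 against 1228.5 bases. All protein-coding genes were divided by coding length into 4 classes of nearly equal size. In the class of the shortest, with 678 coding bases or fewer, 7 of 33 mug genes (21.2%) had an intron, against 55.0% of other genes. From 681 to 1143 bases the shares were 9 of 28 mug genes (32.1%) and 48.4% of other genes. From 1146 to 1767 bases they were 8 of 19 mug genes (42.1%) and 44.4% of other genes. From 1770 bases upward 9 of 12 mug genes (75%) had an intron, against 42.3% of other genes. The order of members and other genes thus reversed between the shortest and the longest class, the longest resting on 12 members.

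Among the genes with a mug synonym the shares showed no steady order over the classes. From the shortest class to the longest an intron was found in 12 of 18 (66.7%), 10 of 25 (40%), 13 of 20 (65%) and 7 of 20 (35%). Without the ribosomal protein genes, many of which are short and have introns, 54.8% of other genes in the shortest class had one. Orphans among other genes had an intron in 29.2% of cases, beside 13 of 39 orphan members (33.3%).

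**Figure D1:**
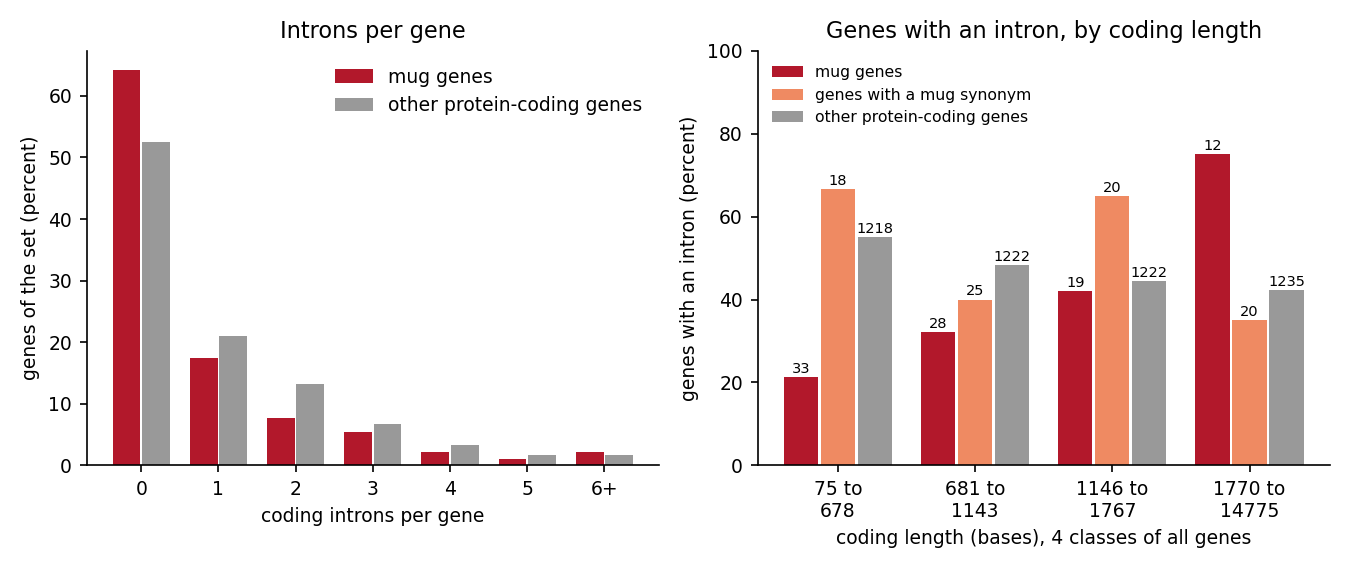
Share of genes by number of coding introns (left) and share of genes with an intron in 4 classes of coding length (right), for mug genes, genes with a mug synonym (right only) and other protein-coding genes. Numbers above the bars are genes in the class. In mug genes the share with an intron climbs from 21.2% in the shortest class to 75% in the longest, while in other genes it declines from 55.0% to 42.3%.

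The members with most introns were mug62 and mug137 with 6 each, mug16 with 5, and mug161 and mug64 with 4 each. The proteins of mug137 and mug64 are BAR domain proteins, that of mug16 belongs to the UNC-50 family of membrane proteins, and that of mug161 is the predicted splicing factor named above. The gene mug62 was the only member on which the deposited annotations differed in coding sequence: the ectopic-site annotation gave it 4287 coding bases and 5 introns. All 92 members had the same coding length in the endogenous-site annotation and in ASM294v3.

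Introns of mug genes had a median length of 56 bases, against 55 in other genes and 50.5 in genes with a mug synonym. They ran from 37 bases in mug174 to 272 in mug65. The product of mug174 is a coilin in ASM294v3 and was described by name alone in the ectopic-site annotation. Under 50 bases were 40% of the introns of mug genes and 36% of those of other genes. All 70 introns of members began with GT. At the splice donor GTATGT opened 11.4% of the introns of mug genes and 20% of those of other genes, and GTAAGT 24.3% and 27.6%. At the acceptor TAG closed 68.6% of the introns of mug genes and 68.3% of those of other genes. The shortest coding intron of the members is shown with both introns of mug93, whose product the ectopic-site annotation describes as a TPR repeat protein and whose transcript it calls meiotically spliced. They were read from ASM294v3, 5′ to 3′ on the coding strand, and the capitals mark the first 6 and last 3 bases. The mug174 intron lies at chrIII:376591-376627 on the minus strand, and the mug93 introns at chrII:1461776-1461834 and chrII:1461945-1462098 on the plus strand.
mug174, only coding intron: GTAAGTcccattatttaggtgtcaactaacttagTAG
mug93, first intron: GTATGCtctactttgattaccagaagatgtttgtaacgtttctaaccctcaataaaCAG
mug93, other intron: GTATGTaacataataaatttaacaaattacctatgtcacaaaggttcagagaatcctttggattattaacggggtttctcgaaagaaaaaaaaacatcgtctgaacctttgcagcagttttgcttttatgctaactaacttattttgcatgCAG
The sequences of mug93 are longer than the median intron of members, at 59 and 154 bases, and both close with CAG, which ended 22.9% of the introns of mug genes and 18.9% of those of other genes.

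Members were spread over all chromosomes. Chromosome I held 47, chromosome II 23 and chromosome III 22. They made up 2.07% of the protein-coding genes of the range on chromosome I, 1.27% on II and 2.41% on III, beside 1.84% over all. Per Mb there were 8.74 on I, 5.29 on II and 8.98 on III, so that chromosome II had the lowest density on either scale. On chromosome I 36 members lay left of the centromere and 11 right of it, and other genes stood there at 1518 and 705. The plus strand carried 43 members (46.7%) and 49.7% of other genes.

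The outermost members were mug177 and mug5 on chromosome I, mug14 and mug131 on II, and mug135 and mug170 on III. The nearest to a centromere were mug182 at 66903 bases on I, mug124 at 40490 bases on II and mug117 at 119647 bases on III. The protein of mug182 is in ASM294v3 an epimerase that repairs hydrated NADH, and in the ectopic-site annotation a predicted pyridoxamine-phosphate oxidase of the YjeF family. The genes mug124 and mug117 have no described function. None of the members lay close to the reporter feature of the endogenous-site annotation, the nearest being mug100 at 206721 bases. That feature is named for tet operators and ura4, whereas the strain labels give ade6+. The number of tet operators in its name also differs from the 10 of the labels. The longest stretch without a member was 638631 bases between mug20 and mug98 on chromosome II.

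**Figure D2:**
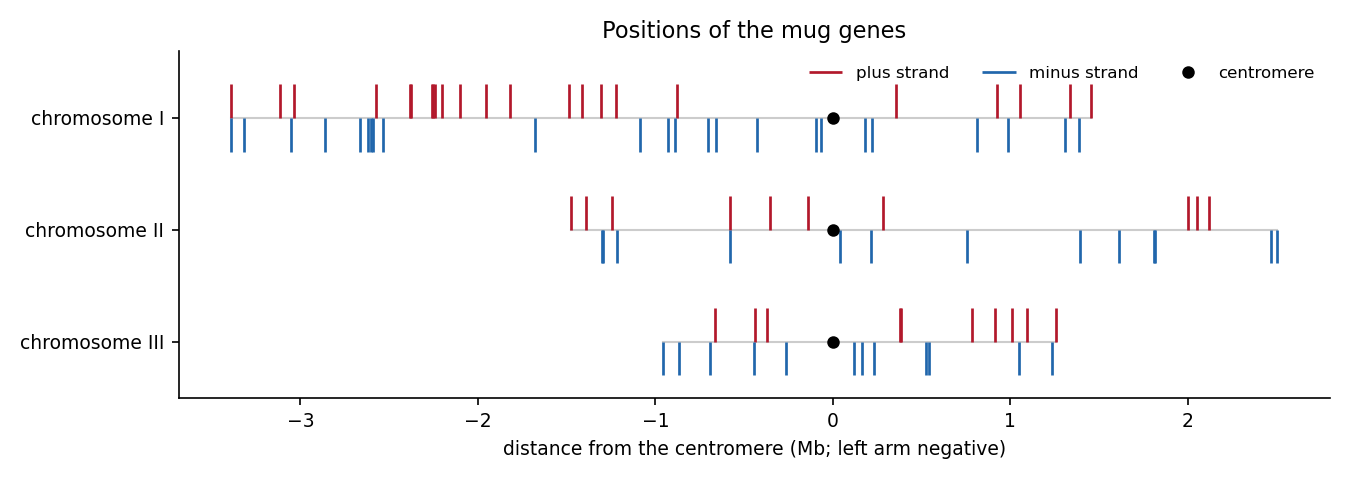
Position of each of the 92 mug genes as distance from the centromere of its chromosome, in Mb, with lines above the axis for the plus strand and below it for the minus strand. Chromosome I holds 36 members on its left and 11 on its right arm, and chromosome II shows the longest empty stretch, between mug20 and mug98.

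Few members neighboured each other. In 3 cases adjoining protein-coding genes were both members. The pair mug177 and mug58 overlapped by 1407 bases on opposite strands, mug57 and mug97 by 1265 bases on opposite strands, and mug116 and mug86 followed each other on the plus strand with 1178 bases between them. The protein of mug58 is a predicted glycerate kinase, mug177 and mug116 encode orphans, and mug57 and mug97 were described by name alone. The gene mug97 was enclosed in mug57 over its full 1265 bases.

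Neighbouring another member was thus found for 6 mug genes (6.52%), against 3.59% of other genes that had a member as neighbour. The median distance to the nearest member was 40244 bases from a mug gene and 46258 bases from other genes. Another member lay within 20000 bases of 28.3% of mug genes and of 27% of other genes. The fullest window of 50000 bases held 4 members, mug64, mug115, mug103 and mug84 on chromosome I. Their products are a BAR domain protein, a pair of orphans and a subunit of the enzyme that starts the GPI anchor. Members therefore stood about as near to each other as other genes stood to members, apart from the 3 adjoining pairs.

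Antisense genes, here non-coding RNA genes whose identifier starts with SPNCRNA. on the opposite strand, overlapped 61 mug genes (66.3%), against 76.1% of other genes and 75.9% of all protein-coding genes in the range. Transcripts antisense to meiotic genes are widespread in this yeast. The mean number per gene was 0.902 in mug genes and 1.19 in other genes. No antisense gene was found at 31 members, 1 at 43, 2 at 15, 3 at 2 and 4 at 1. The 83 overlaps involved 83 different antisense genes, so none was shared by members. On the same strand an SPNCRNA. gene overlapped 3.26% of mug genes and 4.04% of other genes. Among genes with a mug synonym 73.5% had an antisense gene.

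Full cover of the coding bases by antisense genes was more frequent in mug genes, with percentages taken over all genes of each set. All coding bases were covered in 29 mug genes (31.5%), against 17.1% of other genes and 24.1% of genes with a mug synonym. At least 50% of the coding bases were covered in 48 mug genes (52.2%), against 49.1% of other genes and 49.2% of all protein-coding genes. Of the genes with an antisense gene, 29 of 61 mug genes and 836 of 3725 other genes had all coding bases covered. At least 50% was covered in 48 of these 61 mug genes and 2406 of these 3725 other genes. Partial cover under 50% was found in 8 mug genes (8.70%) and in 22.6% of other genes. In 5 mug genes (5.43%) the antisense gene reached no coding base, near the 4.31% of other genes and 4.33% of all protein-coding genes. Members thus sat more often at either end, with no antisense gene or with one that spanned the whole coding sequence, and their coding sequences were also the shorter ones.

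Gene length went with the presence of an antisense gene in both sets, over 4 classes of gene length of nearly equal size. Among genes of 1220 bases or fewer it was 21 of 35 mug genes (60%) and 63.2% of other genes. From 1221 to 1789 bases it was 12 of 23 mug genes (52.2%) and 75% of other genes. From 1790 to 2568 bases it was 17 of 21 mug genes (81.0%) and 80.4% of other genes. Above that it was 11 of 13 mug genes (84.6%) and 85.5% of other genes. The distance between the sets was widest in the class from 1221 to 1789 bases.

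**Figure D3:**
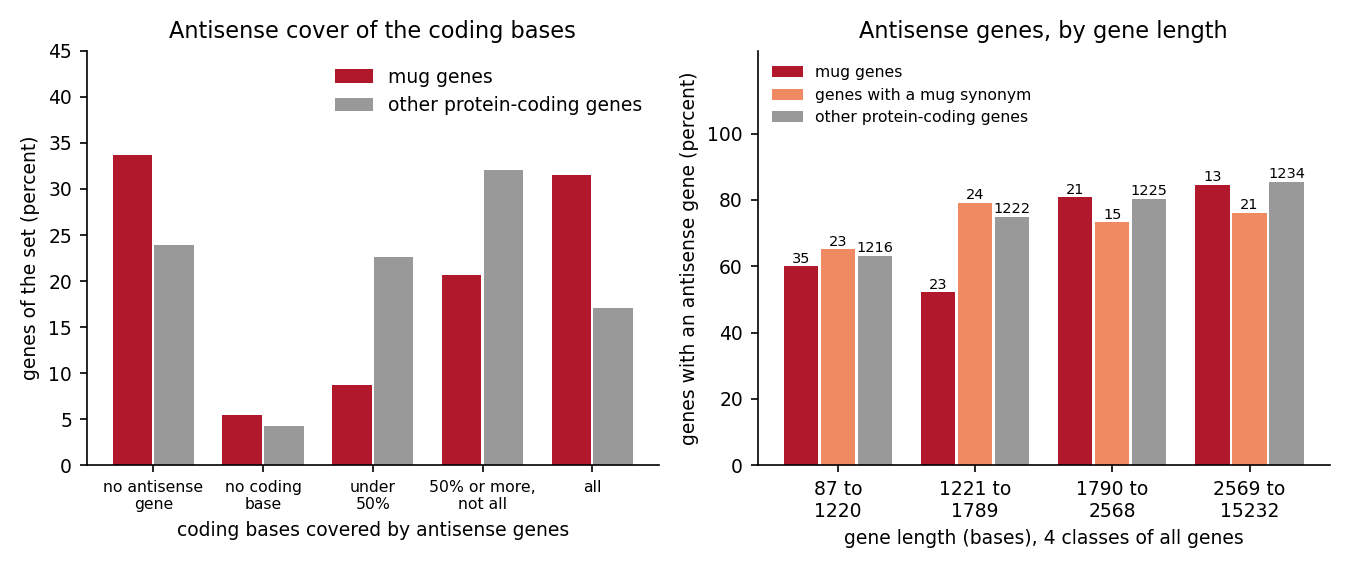
Share of genes by the part of their coding bases covered by opposite-strand SPNCRNA. genes (left), and share with at least 1 such gene in 4 classes of gene length (right). Numbers above the bars are genes in the class. All coding bases are covered in 31.5% of mug genes and 17.1% of other genes, and in the right panel the sets stand apart mainly from 1221 to 1789 bases.

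The member with most antisense genes was mug89, with 4, from SPNCRNA.4651 to SPNCRNA.4654, of which SPNCRNA.4653 and SPNCRNA.4654 covered 56.9% of its coding bases and the other two reached none. The genes mug24 and mug72 had 3 each. At mug24 SPNCRNA.7549 covered every coding base and the other two none. The product of mug72 is a predicted oxidoreductase. The genes mug124, mug132, mug165, mug20 and mug99 had 2 antisense genes each, 1 that covered all coding bases and 1 that covered none. At mug93 the single gene SPNCRNA.1435, of 2165 bases, ran across all 1365 bases of the gene. At mug153 SPNCRNA.3297, of 2137 bases, likewise spanned the whole gene of 1943 bases.

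These counts rest on which annotation was read. The endogenous-site annotation listed 7208 SPNCRNA. genes and the ectopic-site annotation 1566. In the ectopic-site annotation 21 of the 92 members (22.8%) had an antisense gene, and 40 members that had one in the endogenous-site annotation had none. The genes named mug there numbered 114, and 22.8% of them had an antisense gene, beside 21.5% of other genes.

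The annotated ends of the transcripts also differed. No 5′ untranslated region (UTR) was annotated for 34 mug genes (37.0%), against 9.86% of other genes and 20.5% of genes with a mug synonym. No 3′ UTR was annotated for 17 mug genes (18.5%) and for 6.78% of other genes. Where a 5′ UTR was annotated, its median was 126 bases in 58 mug genes and 97 bases in 4414 other genes, and where a 3′ UTR was annotated, its median was 316 bases in 75 mug genes and 261 bases in 4565 other genes. With genes that had none counted at 0, the medians were 40.5 bases in mug genes and 82 bases in other genes for the 5′ UTR, and 255 bases in mug genes and 245 bases in other genes for the 3′ UTR. The longest 5′ UTRs belonged to mug132 with 994 bases, mug121 with 921 and mug100 with 821. The longest 3′ UTRs belonged to mug115 with 2724 bases, mug163 with 2667 and mug162 with 1922. A 3′ UTR over 1000 bases was found in 11 mug genes (12%) and in 8.45% of other genes. Where no UTR is annotated, the gene start used for the promoter is the start codon. None of the members had one of the 63 annotated promoter features of the file within 1000 bases before its start.

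Promoters, taken as the 250 bases before to 50 after the annotated start in ASM294v3, were searched for the Mei4 motif, spelled GTAAACA or GTAAATA on either strand. It was found in 54 mug promoters (58.7%), against 29.3% of other promoters and 29.9% of all promoters. At least 2 matches were found in 23 mug promoters (25%) and in 6.15% of other promoters. The genes with a mug synonym stood near the members, with a match in 45 of 83 promoters (54.2%) and at least 2 in 16.9%. The spelling GTAAACA was found in 47.8% of mug promoters and 16.3% of other promoters, GTAAATA in 23.9% and 16.3%. A match is a run of letters and not a shown binding site.

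Base composition and the missing UTRs were set beside these shares. The mean GC content of the promoters was 32.4% in mug genes and 33.2% in other genes. The same letters in reversed order, ACAAATG and ATAAATG, which keep the composition, were found in 27.2% of mug promoters and 19.2% of other promoters. Both words end in ATG, so they can also match at a start codon. The start codon lies in the window wherever no 5′ UTR is annotated, as in 37.0% of mug genes and 9.86% of other genes. It also lies there where the annotated 5′ UTR is short, since the window runs to 50 bases after the start. With missing UTRs counted at 0, the median 5′ UTR was 40.5 bases in mug genes. In other genes the lower quartile was 30 bases and the median 82. These shares therefore do not reflect composition alone. Among genes with an annotated 5′ UTR the Mei4 motif was found in 55.2% of mug promoters and 29.4% of other promoters, and among those without one in 64.7% and 28.8%. In the 250 bases before the start codon it was found in 51.1% of mug genes and 23.5% of other genes. The described members had a match in 25 of 32 promoters (78.1%) and the orphan members in 19 of 39 (48.7%), beside 28.4% of the orphans among other genes.

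Matches in mug promoters were least frequent farthest from the annotated start. In successive bins of 50 bases, from 250 bases before the start up to the start, there were 6.52, 18.5, 16.3, 21.7 and 22.8 matches per 100 mug promoters. The same bins held 5.84, 6.47, 7.21, 7.11 and 6.27 matches per 100 promoters of other genes. The level in other genes was thus nearly even, while in mug genes the first bin lay near it and the 4 nearer bins were at 16.3 or more.

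**Figure D4:**
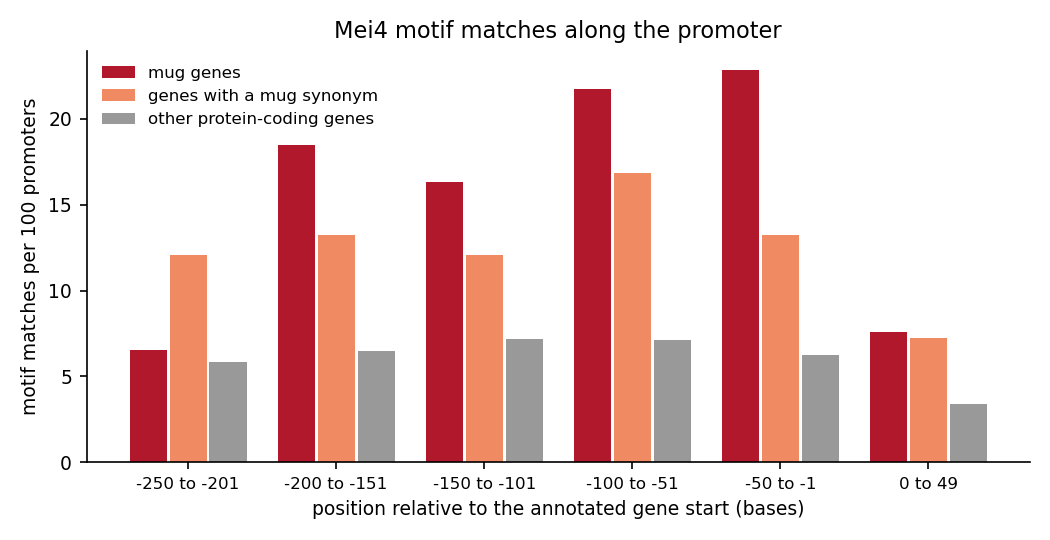
Mei4 motif matches per 100 promoters by the position of their first base relative to the annotated gene start, in bins of 50 bases, for mug genes, genes with a mug synonym and other protein-coding genes. Mug genes reach 22.8 matches per 100 promoters in the last 50 bases before the start, against 6.27 in other genes; the rightmost bin holds fewer positions at which a whole motif can start.

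The most matches, 4, were found at mug162, followed by 3 at each of mug109, mug130, mug174, mug20, mug70, mug73 and mug94. The product of mug109 is a predicted Rab GTPase-binding protein upregulated in meiosis II, mug174 is the coilin gene and mug73 the transporter gene. The genes mug130 and mug20 show how such matches lie, since both have an annotated 5′ UTR and at least 250 bases to the next gene upstream. The 250 bases before their starts are given from ASM294v3, 5′ to 3′ towards the gene, at chrI:2861767-2862016 on the minus strand for mug130 and chrII:2393119-2393368 on the minus strand for mug20. Capitals mark the Mei4 motif, TGTTTAC being GTAAACA on the opposite strand.
mug130: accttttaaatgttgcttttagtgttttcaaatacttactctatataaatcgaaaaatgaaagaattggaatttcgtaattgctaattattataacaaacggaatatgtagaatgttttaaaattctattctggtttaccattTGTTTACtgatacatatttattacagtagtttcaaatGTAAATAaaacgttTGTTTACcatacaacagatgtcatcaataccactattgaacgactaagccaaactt
mug20: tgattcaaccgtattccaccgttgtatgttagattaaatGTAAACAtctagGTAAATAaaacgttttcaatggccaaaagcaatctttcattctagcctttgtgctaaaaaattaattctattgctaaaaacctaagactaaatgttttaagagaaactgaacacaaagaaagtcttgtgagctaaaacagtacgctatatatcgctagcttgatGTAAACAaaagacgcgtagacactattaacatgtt
At mug130 both spellings lie close together and on both strands in the part nearer to the gene. At mug20 a pair stands far from the start and a single match near it, beside an ACGCGT, the letters bound by the cell cycle factor MBF.

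Motifs of other factors were found at similar shares, apart from TATAAA. The Ste11 motif TTCTTTGTT was found in 2 mug promoters (2.17%) and in 1.98% of other promoters, and ACGCGT in 3 mug promoters (3.26%) and in 3.31% of other promoters. Among genes with a mug synonym ACGCGT was found in 9 of 83 promoters (10.8%). TATAAA, letters of a TATA box, was found in 59.8% of mug promoters and 47.8% of other promoters. Either strand was searched for each, and a match of TATAAA can share bases with one of GTAAATA.

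The Mmi1 motif TNAAAC was counted on the coding strand of the coding sequence. Mug genes held 221 matches, or 2.34 per 1000 coding bases, and other genes 1.68. On the antisense strand, which is not in the mRNA, the rates were 1.64 in mug genes and 1.69 in other genes. The spelling TTAAAC was found at 0.476 per 1000 bases in mug genes and 0.335 in other genes, and TCAAAC at 0.645 and 0.452. Genes with a mug synonym had 2.47 per 1000 bases on the coding strand and 1.88 on the antisense strand. The difference between members and other genes was thus seen on the strand that is in the mRNA.

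A few members held many of the matches. At least 8 were found in 6 members (6.52%), against 4.45% of other genes and 4.49% of all coding sequences. These were mug45 with 17, mug8 with 13, mug62 with 12, mug4 with 10, mug28 with 9 and mug9 with 8. Together they held 31.2% of the matches of the 92 members. Without them the rate was 1.89 per 1000 bases, beside 1.68 in the other genes, from which no such genes were taken out. No match was found in 17 mug genes (18.5%) and in 22.1% of other genes. Long coding sequences give more matches by length alone, and mug62 with 2.69 per 1000 bases was near the rate of all members.

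Scaled to length, the median over genes was 1.78 matches per 1000 coding bases in mug genes and 1.52 in other genes. Over 4 per 1000 bases were found in 18 mug genes (19.6%) and in 5.82% of other genes. The highest member, mug9, had 12.8 matches per 1000 coding bases and had rank 4 among the 1791 genes with at least 3 matches. The next members were mug37 with 9.17 at rank 9, mug178 with 7.37 at rank 27, mug45 with 6.91 at rank 33 and mug8 with 6.01 at rank 60. The products of mug9 and mug8 were listed as conserved fungal proteins and those of mug37 and mug45 as orphans, while mug178 encodes a mitochondrial ribosomal protein. The stretches of 120 coding bases with most matches in mug9 and mug45 show how densely they can lie. They were read from ASM294v3 on the coding strand, at chrIII:2369332-2369451 on the minus strand for mug9 and chrII:3638655-3638774 on the plus strand for mug45. Capitals mark TNAAAC, which was matched 4 times in mug9 and 3 times in mug45.
mug9: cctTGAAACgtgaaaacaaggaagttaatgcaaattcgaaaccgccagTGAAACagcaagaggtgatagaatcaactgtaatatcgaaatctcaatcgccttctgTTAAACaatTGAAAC
mug45: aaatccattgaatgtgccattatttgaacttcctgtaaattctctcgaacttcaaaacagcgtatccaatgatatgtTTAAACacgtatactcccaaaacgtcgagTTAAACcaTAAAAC
In mug9 the commonest spelling in the stretch is TGAAAC and in mug45 it is TTAAAC.

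**Figure D5:**
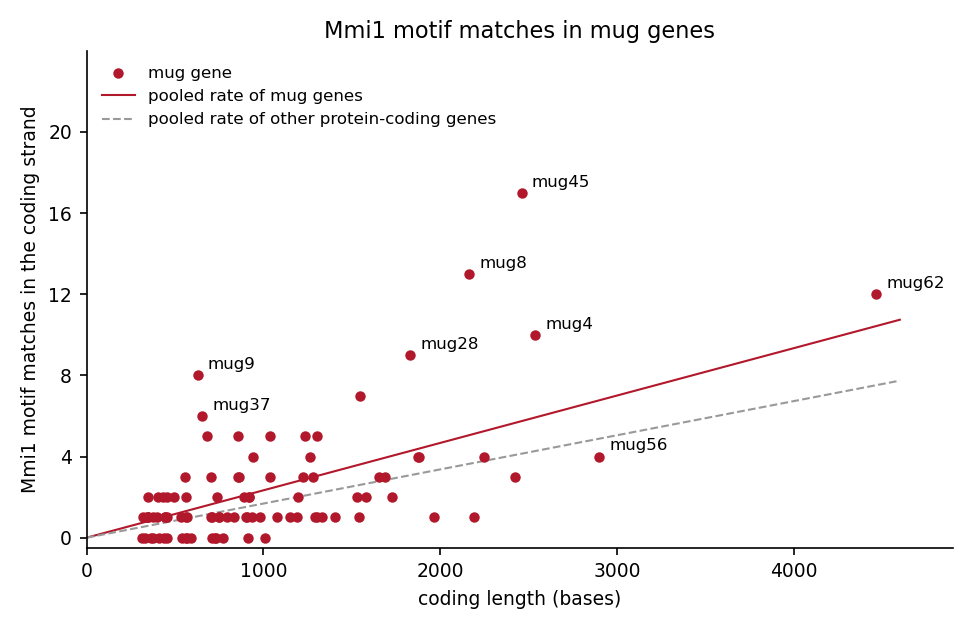
Number of TNAAAC matches on the coding strand against coding length in bases for each of the 92 mug genes, with lines for the pooled rates of mug genes (2.34 per 1000 bases) and of other protein-coding genes (1.68). The points of mug45, mug8, mug9 and mug37 lie far above both lines and that of mug56 lies below them.

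Other meiotic gene families, taken by name from the same range, give a scale for these values. The 6 mcp genes, which encode meiotic coiled-coil proteins, had 3.88 TNAAAC per 1000 coding bases and the 11 rec genes of meiotic recombination 3.55. The 19 meu genes, named for meiotic expression upregulation, had 2.31, the 12 spo genes of sporulation 1.95 and the 8 mde genes, named for dependence on Mei4, 1.26. The 139 ribosomal protein genes had 0.959. Mei4 motif matches were found in 6 of 8 mde promoters (75%), 4 of 6 mcp promoters (66.7%), 12 of 19 meu promoters (63.2%), 5 of 12 spo promoters (41.7%) and 4 of 11 rec promoters (36.4%). The ribosomal protein genes had one in 52 of 139 promoters (37.4%), a share between those of the rec and the spo genes. The mug genes with 58.7% stood between the spo and the meu genes in this share, and with 2.34 per 1000 bases they lay close to the meu genes in the Mmi1 motif. Some genes of these lists also carry a mug synonym, namely mcp3, mcp4, mcp6, mcp7, rec24, rec25, rec27, meu32, meu34, mde10, spo5 and spo7. The values of these lists, those of the mcp genes above all, thus rest in part on genes of the same survey.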

How the data were processed

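The authors deposited 2 genome annotations of the whole series, holding start and end positions in bases and no value per library. Per the file headers and columns, PomBase is the source of the endogenous-site annotation and Geneious wrote the other. Trimmomatic and BWA stand in the submitters' processing notes; the build is not given in the sources used here. Depth per library is unknown.

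Introns were gaps between coding parts of the first listed mRNA. Antisense genes shared at least 1 base with the gene on the opposite strand. Neighbours were protein-coding genes next in order of position. Sequences came from RefSeq ASM294v3, matched by identifier (4987 of 4989 genes, all 92 members), and coordinates were never converted. Named genes are extremes by rule: most introns, longest and shortest, neighbours, outermost, and richest in antisense genes, motifs or UTR bases. The genes named for their products, the values of the genes with a mug synonym as a set of their own, the product classes, the coding length classes, the split by annotated 5′ UTR, the 250 bases before the start codon, the reversed motif letters and the 6 members with 8 or more TNAAAC were added after values were seen. Members and lists were chosen with earlier results of these data known. No test was made. Introns, coding length, number of antisense genes, Mei4 and TNAAAC matches and neighbouring members were tested on simulated data of 300 genes. Each gave the known value in 300. The other measures were not tested in this way. Python 3.11.15, numpy 2.4.6, pandas 2.3.3 and scipy 1.17.1 were used.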

Additional observations from a re-analysis of the deposited data

How the results depend on the processing

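Each of 12 results was recomputed under other choices, 64 alternatives in all. A share counted as moved where it left the 95% Wilson interval of the reported share, and any other value where it changed by over 1.5 times. By that measure 45 alternatives stayed the same, 12 moved and 7 turned the order of mug genes and other genes round. The 45 kept the size of the value of mug genes and, where other genes had a value, the order. The size of the difference between the sets was not judged. With mug synonyms added, 42.9% of these genes and 47.4% of other genes had an intron, which counted as the same. Alternatives that changed only the other genes, by their ribosomal protein genes or the limit at chromosome ends, could not move the value of mug genes. The number of members and the fullest window had no value for other genes. The 7 were the following. Introns per 1000 coding bases were 0.740 in mug genes and 0.715 in other genes. In the longest class of coding length 75% of mug genes and 42.3% of other genes had an intron. An antisense cover of at least 50% of the gene gave 44.6% of mug genes and 44.0% of other genes, any opposite-strand gene 91.3% and 90.4%, the ectopic-site annotation 22.8% and 21.5%, and the class of gene length from 1790 bases 81.0% and 80.4%. TNAAAC on the antisense strand stood at 1.64 and 1.69 per 1000 bases. Those that moved were the members with mug synonyms added (175 genes), the share with an intron in the shortest class (21.2%), a neighbouring member among all genes (2.17%, against 1.27% of other genes) or within 10000 or 20000 bases (19.6% and 28.3%), same-strand SPNCRNA. genes (3.26%), antisense genes in the classes of gene length from 1221 (52.2%) and from 2569 bases (84.6%), the Mei4 motif on the sense strand alone (28.3%) or with reversed letters (27.2%), and TTAAAC (0.476) and TCAAAC (0.645) alone. On the sense strand alone the Mei4 motif was found in 28.3% of mug promoters and 13.4% of other promoters, so the order was kept. Of the alternatives 46 were listed at the outset, with earlier results of these data known, and 18 were chosen after seeing the data. No paired analysis was possible because each group held 1 library and no result compares libraries. Intervals cover counting only, and the number of members limits each share.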

Other observations

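The product descriptions of the deposited and reference annotations mix up some mug numbers. The ectopic-site annotation calls the product of mug70 "conserved protein Mug20", although mug20 is another gene, and both it and ASM294v3 call the product of mug146 after mug46, a number that adg2 carries as a synonym. In ASM294v3 the member mug99 is named mmc1, which leaves 91 genes named mug there.

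At either side of a mug gene the neighbours lay much as they did around other genes. The gene upstream was on the opposite strand for 57.6% of mug genes and 54.6% of other genes, and the gene downstream for 48.9% of mug genes and 54.7% of other genes. A protein-coding gene on the opposite strand overlapped 40.2% of mug genes and 38.3% of other genes. The gene mug28, which encodes an RNA-binding protein, lay with all its 1970 bases inside the span of mrp17, and mug62 with all its 4796 bases inside that of alp41. The median GC content of the coding sequence was 38.5% in mug genes and 39.7% in other genes.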
